A study of Mus musculus with 15 samples.

Results

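Severe stress with saline (SSS) was compared with mild stress with saline (MSS) in male pups of the C57BL/6 strain, with RNA taken from the right hippocampus on postnatal day 9. The comparison uses 6 of the 15 arrays of the series, 3 from SSS and 3 from MSS, and covers 19938 genes, each measured by the probe set that carries only its symbol and has the highest mean over all 15 arrays. Pups of both groups received the saline vehicle and were treated from postnatal day 5 to day 9, with birth counted as day 1, in litters reduced to at most 7 pups per dam. The groups therefore differ in the labelled severity of the stress. The labels name the stress as mild or severe and do not describe the procedures. A second pair of groups with morphine in place of saline, severe (SSM) against mild (MSM), shares no array with this comparison, and the untreated controls (CC) complete the series. All values are log2 intensities. A difference is the SSS mean minus the MSS mean with the standard error (SE) from limma, and replicate values are given in the order 1, 2, 3. No label ties a pup to its litter, and the p-values therefore reflect only how these arrays vary.

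The results turn on regulators of splicing and on noncoding RNAs, many of which stay in the nucleus. CLK kinases phosphorylate SR proteins, which bind exons and recruit the spliceosome, and many genes of this family control their own output by keeping an intron or including an exon that makes the transcript unproductive. The Dlk1 to Dio3 region is an imprinted cluster: the chromosome inherited from the father expresses the protein-coding genes Dlk1, Rtl1 and Dio3, and the maternal chromosome expresses long noncoding RNAs (Meg3, Rian), small nucleolar RNAs and one of the largest groups of microRNA genes in mammals, many of them active in neurons.

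MicroRNA genes supplied several of the smallest p-values, so the mature sequences of those the results turn on are given here from RefSeq (GRCm38.p6), 5′ to 3′, with the seed, bases 2 to 8, in capitals. The seed is the stretch that pairs with target RNAs. Of the 34 microRNA genes with an unadjusted p under 0.05, 33 matched a mature sequence in the RefSeq table.
miR-380-5p: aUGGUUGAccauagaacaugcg
miR-380-3p: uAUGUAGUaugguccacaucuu
miR-679-5p: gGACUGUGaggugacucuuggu
miR-300-3p: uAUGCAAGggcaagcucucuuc
miR-487b-5p: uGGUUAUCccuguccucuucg
miR-543-3p: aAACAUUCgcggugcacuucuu
miR-99a-5p: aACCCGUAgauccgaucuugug
miR-7a-5p: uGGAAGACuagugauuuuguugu
miR-98-5p: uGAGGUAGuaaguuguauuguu
let-7i-5p: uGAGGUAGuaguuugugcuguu
The first 6 lines are arms of microRNAs encoded between Dlk1 and Dio3, and each has a seed of its own. The only seed shared among the 33 genes was that of the let-7 family, in miR-98-5p and let-7i-5p. The probe sets carry the names of the microRNA genes and cannot tell a mature microRNA from its precursor or from a host transcript that runs through it.

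The 6 arrays were alike, with pairwise correlations across probe sets from 0.997 to 0.998 and no identical pair. Hippocampal neuron genes were present throughout: Prox1, a transcription factor of dentate granule cells, was 8.92, 8.94 and 8.94 in MSS and 8.73, 9.10 and 8.80 in SSS, and Neurod6, a transcription factor of pyramidal neurons, was 9.27 to 9.51. RNA of the bordering choroid plexus differed between arrays of the same group. Ttr, its thyroid hormone carrier, was 9.17, 8.99 and 13.06 in MSS and 12.91, 8.87 and 13.22 in SSS. The titles carry an SS number of unstated meaning, which is 11 for all mild-stress arrays and 8 to 10 for the severe-stress arrays. This number and the stress level therefore cannot be told apart. Within SSS the number is 10 for replicates 1 and 2 and 8 for replicate 3.

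No gene passed an adjusted p of 0.05 in limma with Benjamini-Hochberg adjustment (0 of 19938, or 0.0%), and the smallest adjusted p was 0.527, for Mir380. At an unadjusted p under 0.05 there were 568 genes (2.85%), of which 255 were higher in SSS (1.28%) and 313 lower (1.57%). Large differences lay mostly on the lower side: 23 genes were lower in SSS by at least 0.5 (0.115%) and 11 higher (0.0552%). The balance of calls depended on scaling. Quantile normalization gave 596 higher and 345 lower genes, and centring each array on its median gave 1018 higher and 161 lower. Leaving out SSS replicate 1 left 168 lower genes. In whole tissue, fewer cells of a type and less RNA per cell cannot be told apart.

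Among the 15 genes with the smallest p on the higher side, the SSS arrays all lay above the MSS arrays, as the rule for naming them required, and the means differed by 0.17 to 0.32. Pfn1, which codes for the actin monomer carrier profilin, was 9.10, 9.16 and 9.22 in MSS and 9.36, 9.43 and 9.47 in SSS, a difference of 0.26 (SE 0.07, unadjusted p = 0.0028). Diaph1, a formin that builds actin filaments from profilin-bound monomers, was 6.21, 6.17 and 6.17 in MSS and 6.34, 6.41 and 6.39 in SSS. These genes act in the same step of actin assembly, and in both the lowest SSS array was more than 0.1 above the highest MSS array.

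Banf1, a DNA-binding protein that helps to rebuild the nuclear envelope after mitosis, had the smallest unadjusted p on this side (0.000799) and was 9.51, 9.49 and 9.44 in MSS against 9.79, 9.69 and 9.69 in SSS. Tex264, a receptor that feeds endoplasmic reticulum into autophagosomes, was 8.13, 8.15 and 8.08 in MSS and 8.28, 8.49 and 8.48 in SSS. Sh3glb1, an endophilin that bends membranes in autophagy and apoptosis, was 9.34, 9.39 and 9.37 in MSS and 9.61, 9.60 and 9.51 in SSS. The lowest SSS array was more than 0.1 above the highest MSS array in each of these 3 genes, and in Tex264 SSS replicate 1 lay nearest to MSS. Every adjusted p on this side was 1.0 in limma.

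Several others of the 15 act on transcription or at the synapse. Mllt1, a reader of acetylated histones in the super elongation complex, differed by 0.23 (SE 0.07), Ssu72, a phosphatase of the RNA polymerase tail, by 0.21 (SE 0.06), and Zbtb2, a zinc finger transcription factor, by 0.29 (SE 0.07). Caly, a neuronal vesicle protein that assists clathrin-mediated endocytosis, was 9.56, 9.52 and 9.62 in MSS and 9.70, 9.76 and 9.80 in SSS. Kbtbd7, a substrate adaptor of cullin ubiquitin ligases, had close replicates: 7.51, 7.48 and 7.51 in MSS and 7.70, 7.65 and 7.67 in SSS. The remaining members were Sdhaf1, Tmem200c, Msl3l2, Plekhj1 and Pcnx4.

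Genes with overlapping arrays included the largest differences on the higher side, such as the choroid plexus genes Ttr (1.26) and Clic6 (1.02). Among the genes whose arrays did not overlap, with a mean of at least 6 and with predicted genes, RIKEN clones and small RNAs passed over, the largest higher differences were Trim67 (0.31), Eif4ebp2 (0.30), Tex264 (0.30), Nwd2 (0.29), Aph1c (0.27), H4c4 (0.27), Klf13 (0.26) and Neto2 (0.26). Eif4ebp2, which holds back cap-dependent translation in neurons, was 6.86, 6.97 and 6.98 in MSS and 7.18, 7.38 and 7.14 in SSS, with no overlap. Neto2, an auxiliary subunit of kainate receptors, was 8.99, 9.08 and 8.91 in MSS and 9.34, 9.20 and 9.21 in SSS. Trim67 and Nwd2 had unadjusted p of 0.088 and 0.11, above the 0.05 line. H4c4 codes for a histone with near-identical copies, so its probe set may read several genes.

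**Figure D1:**
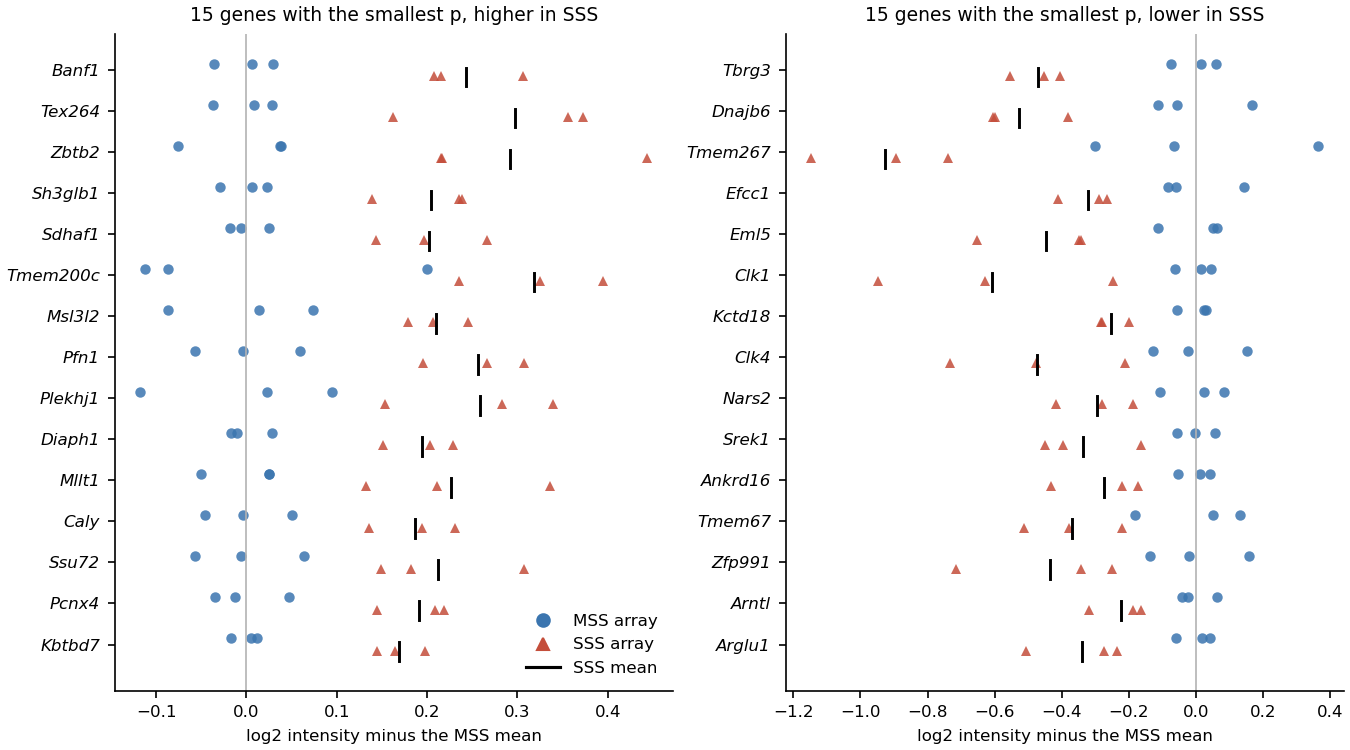
Log2 intensity minus the MSS mean (horizontal axis) in the 3 MSS arrays (blue circles) and 3 SSS arrays (red triangles) for the 15 genes with the smallest unadjusted p in each direction, with black bars for the SSS mean. SSS means lie 0.17 to 0.32 above MSS in the left panel and as far as -0.93 below in the right panel, where the SSS arrays are more spread, and the 2 panels have different scales.

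On the lower side, the 15 genes with the smallest p lay between -0.93 (Tmem267) and -0.22 (Arntl). Clk1, Clk4, Srek1 and Arglu1 among them are splicing genes and are described with their list. Tbrg3 had the smallest p of them (9.2e-05, adjusted p = 0.917 in limma with Benjamini-Hochberg adjustment) and was 5.85, 5.90 and 5.76 in MSS and 5.28, 5.38 and 5.43 in SSS. It lay below the array medians on the SSS arrays, which makes it a dim measurement. Tmem267, a membrane protein, was 9.44, 9.87 and 9.20 in MSS and 8.61, 8.35 and 8.76 in SSS. The CC arrays, at 8.44, 8.74 and 8.72, lay in the SSS range for this gene, below all MSS arrays.

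Others of this set have unrelated known roles. Dnajb6, a co-chaperone that keeps polyglutamine proteins from aggregating, was 5.17, 5.39 and 5.11 in MSS and 4.62, 4.84 and 4.62 in SSS, close to or below the array medians, which makes it a dim measurement. Eml5, a microtubule-binding protein, was 8.49, 8.47 and 8.31 in MSS and 7.77, 8.07 and 8.08 in SSS. Nars2, which charges asparagine tRNA in mitochondria, differed by -0.29 (SE 0.07), and Tmem67, a protein of the ciliary transition zone, by -0.37 (SE 0.09). Efcc1, Kctd18, Ankrd16 and Zfp991 complete the 15.

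Most genes of the CLK and SR splicing list had the lower mean in SSS, and none passed the adjusted threshold in limma. Of 26 measured members, 24 had the lower mean in SSS against 45.6% of all genes, 10 had an unadjusted p under 0.05 on the lower side (38.46% of the list, against 1.57% of all genes) and 0 on the higher side. In 11 members all SSS arrays lay below all MSS arrays, against 4.43% of all genes. The list median was -0.13, against 0.0076 for all genes. This list and the nuclear-retained and Dlk1 to Dio3 sets below were chosen with earlier results of these data known. Their counts beside the shares of all genes are therefore a description and not independent support.

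Clk1, a kinase of SR proteins, was 9.67, 9.64 and 9.56 in MSS and 8.68, 9.00 and 9.38 in SSS, a difference of -0.61 (SE 0.14, unadjusted p = 0.000746). Its relative Clk4 was 8.40, 8.12 and 8.22 in MSS and 7.51, 7.77 and 8.03 in SSS. The groups did not overlap in either kinase, and SSS replicate 1 was lowest and replicate 3 nearest to MSS in both. Clk3, a further kinase of the family chosen after its value was seen, differed by -0.10 with overlapping arrays.

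Tra2a, which activates exons through purine-rich enhancers, was 8.77, 8.66 and 8.40 in MSS and 7.66, 8.17 and 8.38 in SSS. Arglu1, a coactivator that also acts in splicing, was 8.28, 8.38 and 8.36 in MSS and 7.83, 8.06 and 8.10 in SSS. Srek1, an SR-related regulator outside the list, was 8.50, 8.44 and 8.39 in MSS and 7.99, 8.05 and 8.28 in SSS. Tra2a separated the groups by a narrow margin, since SSS replicate 3 lay just under MSS replicate 3.

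The rest of the list was graded. Srsf5 (-0.29), Srsf6 (-0.22), Luc7l3 (-0.35), Luc7l2 (-0.13), Son (-0.21) and Pnisr (-0.50) had unadjusted p under 0.05, whereas the other 16 members did not. Among these were the SR protein Srsf1 (-0.065) and the SR kinase Srpk2 (0.038). Outside the list, Leng8, one of the 8 largest differences on the lower side by the same rule, was 9.22, 9.15 and 9.12 in MSS and 7.96, 8.79 and 9.05 in SSS. The members just named, and further splicing genes outside the list, were chosen after their values were seen. Snrnp70, the U1 snRNP protein that recognises the start of introns, differed by -0.27 (SE 0.08), Prpf39 by -0.38 (SE 0.12), Rsrp1 by -0.36 (SE 0.12) and Akap8 by -0.28 (SE 0.08).

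The direction of the splicing list did not turn under either other scaling, with medians of -0.16 after quantile normalization and -0.095 after median centring, but its size leaned on SSS replicate 1. Without that array the median was -0.081, with 22 of 26 members lower and 6 at an unadjusted p under 0.05. Choroid plexus RNA was set beside it: with the choroid plexus mean as a covariate the median was -0.14 with 10 such members, and among the 3 saline arrays with high Ttr (MSS replicate 3, SSS replicates 1 and 3) it was -0.13. That setting leaves MSS with 1 array, so only its differences are given here and below, with no test.

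The list of long noncoding RNAs named here as nuclear-retained had the median furthest from 0 of the 34 lists, -0.53. It came from 5 measured members of 14, all with the lower mean in SSS, and where these RNAs lie in the cell was not measured. The median is the value of Meg3, which with Rian belongs also to the Dlk1 to Dio3 cluster below, so the results share these genes. Malat1, an abundant RNA of nuclear speckles, where splicing factors are stored, was 11.25, 11.48 and 11.26 in MSS and 9.83, 10.96 and 11.21 in SSS. Snhg11, a neuronal host gene of small nucleolar RNAs, was 9.13, 8.87 and 8.82 in MSS and 7.98, 8.70 and 8.80 in SSS. In both, SSS replicate 1 was far below the other arrays, and SSS replicate 3 was within 0.05 of the lowest MSS array.

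The differences were -0.66 (SE 0.24, unadjusted p = 0.0162) for Malat1, -0.44 (SE 0.19, unadjusted p = 0.0344) for Snhg11 and -0.16 (unadjusted p = 0.0902) for Gas5. Together with Meg3 and Rian, 4 of 5 members had an unadjusted p under 0.05, against 1.57% of all genes on the lower side. Without SSS replicate 1 the list median was -0.21 and 1 member did. With only the 6 saline arrays in the fit, 1 member did as well. Among the 3 saline arrays with high Ttr the median was -0.43. Further long noncoding RNAs chosen after their values were seen were Firre, an RNA that organises nuclear domains (-0.37, unadjusted p = 0.0549), and Cdr1os, the transcript from which the circular RNA that binds miR-7 is made (-0.38, unadjusted p = 0.0034).

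Along the Dlk1 to Dio3 cluster, 47 genes were measured in RefSeq order including both end genes. Of these 43 had the lower mean in SSS, against 45.6% of all genes. An unadjusted p under 0.05 was reached on the lower side by 21 (against 1.57% of all genes) and on the higher side by 0, and in 16 the arrays did not overlap (against 4.43%). The median was -0.25, and it stayed below 0 under quantile normalization (-0.22) and median centring (-0.21). Probe sets of several members may read a shared host transcript, so the 47 genes are not independent observations.

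The long noncoding and the protein-coding genes of the cluster are given in turn. Meg3, the maternally expressed RNA at the start of the cluster, was 12.18, 12.11 and 11.93 in MSS and 10.92, 11.80 and 11.91 in SSS, a difference of -0.53 (SE 0.19). Rian, the noncoding host of small nucleolar RNAs, was 8.50, 8.42 and 8.04 in MSS and 7.33, 7.59 and 8.07 in SSS, so that SSS replicate 3 overlapped MSS. The paternally expressed Dlk1, a Notch ligand-like membrane protein, differed by 0.14 (SE 0.14), Rtl1, a retrotransposon-derived gene, by -0.065 (SE 0.09), and Dio3, which inactivates thyroid hormone, by 0.25 (SE 0.13). None of these 3 had an unadjusted p under 0.05, and the difference between the paternal and the maternal genes was not tested. Rtl1 and Dio3 lay below the array medians, which makes them dim measurements. In the morphine pups Rtl1 differed by -0.32 (unadjusted p = 0.0028 in limma), on the lower side like Meg3 and Rian, Dlk1 by 0.075 and Dio3 by 0.14.

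Mir380 had the smallest p of all 19938 genes (2.64e-05). It was 5.64, 5.78 and 5.32 in MSS and 4.49, 4.84 and 4.86 in SSS, a difference of -0.85 (SE 0.14, adjusted p = 0.527 in limma with Benjamini-Hochberg adjustment). The SSS arrays were all below the MSS arrays, and so were the CC arrays at 5.21, 4.75 and 5.20. Mir543 was 5.31, 5.10 and 5.10 in MSS and 4.54, 4.71 and 5.01 in SSS, again without overlap. Both are dim measurements. Mir543 lay below the array medians on every saline array, and Mir380 did so on the SSS arrays and MSS replicate 3.

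In some microRNA genes of the cluster, as in Rian, SSS replicate 3 lay among the MSS arrays. Mir300 was 6.29, 6.26 and 5.91 in MSS and 4.87, 5.58 and 5.99 in SSS, and Mir487b was 7.20, 6.94 and 6.86 in MSS and 5.71, 6.34 and 6.94 in SSS. Mir679, chosen after its values were seen, was brighter and separate: 8.53, 8.48 and 8.43 in MSS against 7.20, 8.09 and 7.96 in SSS. Mir341, chosen in the same way, was 9.21, 9.20 and 8.88 in MSS and 8.17, 8.65 and 8.77 in SSS. Mir679 and Mir341 did not overlap between groups, whereas Mir300 and Mir487b did.

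**Figure D2:**
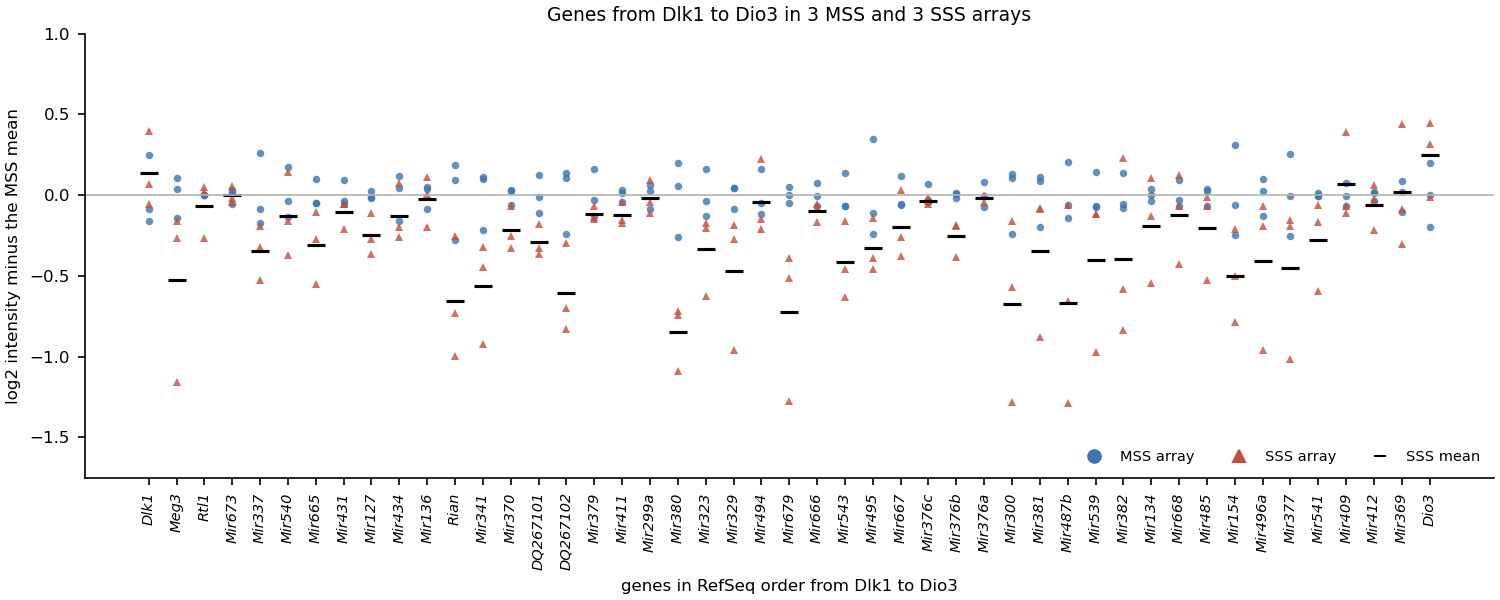
Log2 intensity minus the MSS mean (vertical axis) for the 47 measured genes in RefSeq order from Dlk1 to Dio3 (horizontal axis), in 3 MSS arrays (blue circles) and 3 SSS arrays (red triangles), with black bars for the SSS mean. The SSS mean lies below 0 for 43 of 47 genes, furthest for Mir380 at -0.85. It lies above 0 for Dlk1 and Dio3 at the ends and for the microRNA genes Mir409 and Mir369.

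The count in the cluster was lower without some arrays. Without SSS replicate 1 the median of the 47 genes was -0.12, with 7 genes at an unadjusted p under 0.05 on the lower side and 1 on the higher side. Without MSS replicate 1 there were 11 lower genes and without MSS replicate 2 there were 14. The choroid plexus covariate gave 16, and among the 3 saline arrays with high Ttr the median was -0.22. Mir380, Mir543, Mir300, Mir487b, Mir679 and Mir341 had the lower mean in SSS under each of these settings.

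Outside the cluster, the division of microRNA genes between the sides depended on scaling. Of all 297 measured microRNA genes, 34 had an unadjusted p under 0.05 on the lower side (11.45%, against 1.293% of 18556 protein-coding genes) and 0 on the higher side. Quantile normalization gave 29 lower and 5 higher, and median centring 24 lower and 5 higher, with all 5 outside the cluster in both. The 34 became 15 without SSS replicate 1, 20 without MSS replicate 1 and 21 without MSS replicate 2. The 257 that lie elsewhere contributed 16 of the 34, with a median of -0.032, which became -0.0055 after quantile normalization and 0.0080 after median centring, where 110 were lower and 147 higher. Leaving out 1 array gave 10 to 19 such genes, with 10 when MSS replicate 2 or SSS replicate 1 was left out. Their typical level was low, with a median of 4.37 over all microRNA genes against 6.47 for protein-coding genes.

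Mir99a, chosen after its values were seen, was the clearest of these, although it lay below the array medians in SSS replicates 1 and 2. It was 6.09, 6.05 and 5.87 in MSS and 5.19, 5.33 and 5.50 in SSS, a difference of -0.66 (SE 0.13, unadjusted p = 0.000142, adjusted p = 0.941 in limma with Benjamini-Hochberg adjustment). Its host transcript Mir99ahg was 6.57, 6.33 and 6.32 in MSS and 5.86, 6.10 and 6.19 in SSS, and the groups did not overlap in either. Mir99a was the only gene to pass the adjusted threshold under any setting tried: without SSM replicate 1 and MSM replicate 3, arrays of other groups that enter only the estimate of the spread, its adjusted p was 0.0147, and over all other settings tried no gene passed.

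Mir7-1, whose product binds the circular RNA of the Cdr1os locus, was 4.74, 4.53 and 4.63 in MSS and 4.36, 4.41 and 4.51 in SSS, and Cdr1os itself was 6.15, 6.02 and 5.88 against 5.41, 5.63 and 5.86, both separate by under 0.05. Mirlet7i, which carries the let-7 seed, was 6.18, 6.10 and 6.18 in MSS and 5.90, 6.11 and 5.99 in SSS, with overlap, and Mir98, with the same seed, differed by -0.16 (SE 0.07). These 4 genes were chosen after their values were seen. The probe sets of Mir7-1 and Mir98 lie below the array medians of 5.42 to 5.50.

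The products of small nucleolar RNA genes guide the chemical modification of ribosomal RNA and are mostly cut from introns. Of 53 such genes 41 were lower in SSS, against 45.6% of all genes. The lower side held 9 with an unadjusted p under 0.05 (16.98%, against 1.57% of all genes) and the higher side 0. The class includes DQ267101 and DQ267102 of the Dlk1 to Dio3 cluster, so the results share these genes. DQ267102 (unadjusted p = 0.0040 in limma) is among the 9. The median was -0.091, and it was -0.067 after quantile normalization and -0.051 after median centring. Snord14e, chosen after its values were seen, differed by -0.64 (SE 0.22), with SSS arrays at 6.60, 7.42 and 7.53 all below the lowest MSS array at 7.54, and Snord49a, chosen in the same way, was 6.21, 6.31 and 6.01 in MSS and 5.86, 5.64 and 5.74 in SSS. Without SSS replicate 1 the lower side held 2 small nucleolar RNA genes and the higher side 2. The lower side held 4 without MSS replicate 2 and 5 without MSS replicate 1.

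The mean of each list on each array shows how the arrays of a group differed. For the splicing list it was 9.55, 9.51 and 9.47 in MSS, 9.17, 9.33 and 9.44 in SSS and 9.55, 9.41 and 9.46 in CC. For the nuclear-retained list it was 10.23, 10.22 and 10.04 in MSS, 9.19, 9.81 and 10.03 in SSS and 10.24, 9.86 and 10.13 in CC. The SSS arrays were below the MSS arrays in both lists, with replicate 1 lowest and replicate 3 within 0.05 of MSS replicate 3. SSS replicate 3 is also the SSS array with a different SS number, and the part of that number in this order was not tested. RNA quality values of the arrays were not used here, and the part of RNA quality in the low values of SSS replicate 1 was not tested.

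**Figure D3:**
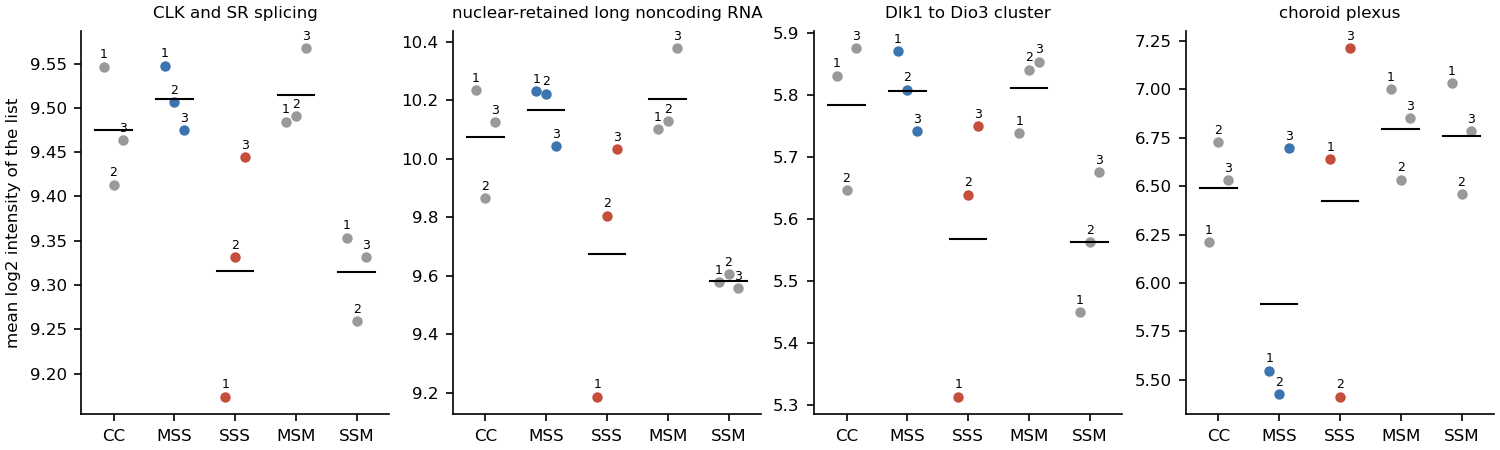
Mean log2 intensity of the members of 4 gene lists (vertical axes, different scales) on each of the 15 arrays by group (horizontal axis), with the replicate number above each point and a bar for the group mean. SSS replicate 1 is lowest of the 15 arrays for the first 3 lists, whereas the choroid plexus mean is low in MSS replicates 1 and 2 and SSS replicate 2.

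The order of the arrays was different for choroid plexus genes. The mean of the 17 measured members was 5.55, 5.42 and 6.70 in MSS and 6.64, 5.41 and 7.21 in SSS, so SSS replicates 1 and 2, both low in the splicing list, lay far apart. All 17 members had the higher mean in SSS, against 54.4% of all genes, with a median of 0.46. However, 0 had an unadjusted p under 0.05 in limma and 0 separated the groups. Single arrays moved these values: the median was 0.84 with 10 members at such a p without MSS replicate 3, 0.85 with 15 without SSS replicate 2, 0.27 with 0 without MSS replicate 2, 0.30 with 0 without MSS replicate 1 and 0.11 with 0 without SSS replicate 3. Cldn2, a tight junction protein of this epithelium, was 4.45, 4.50 and 5.26 in MSS and 5.30, 4.62 and 6.01 in SSS. Aqp1, its apical water channel, was 5.55, 5.77 and 7.15 in MSS and 7.20, 5.92 and 8.05 in SSS.

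In the morphine pups, which share no array with the saline pups, severe minus mild gave 2408 genes higher (12.1%) and 450 lower (2.26%) at an unadjusted p under 0.05 and 0 (0.0%) past the adjusted threshold in limma. The median of all genes was 0.063 there. Across the 19938 genes the saline and the morphine differences had Pearson's r of 0.326 and Spearman's rho of 0.261, a description across genes, which are not independent replicates, and 58.8% of genes had the same sign. The stress level goes with the SS number of the titles in both pairs of groups. Markers of other tissue stood apart in 2 morphine arrays: the striatum list mean was 8.58 in SSM replicate 1 against 6.43 and 6.58 in the other SSM arrays, and the thalamus list mean was 8.16 in MSM replicate 3 against 7.01 and 6.92 in the other MSM arrays. Without these 2 arrays there were 2528 genes higher and 301 lower at such a p and 0 past the adjusted threshold in limma.

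Of the 15 named lower genes, 12 had the same sign in the morphine pups (against 26.4% of all genes on that side), 9 of them with an unadjusted p under 0.05 (against 2.26%). Of the 15 named higher genes, 14 had the same sign (against 73.6% of all genes on that side) and 11 such a p (against 12.1%). Both contrasts take the spread of a gene from the same fit, so genes picked for a small saline p tend to have a small SE in both. The shares of all genes are therefore not a like comparison for the counts at such a p. Without SSM replicate 1 and MSM replicate 3 the same-sign counts were again 12 and 14, with 7 and 9 at such a p. In the limma test between the saline and morphine contrasts, 4 of the lower and 3 of the higher genes had an unadjusted p under 0.05. The share over all genes was 3.65%, and the saline values that picked these genes enter that test too. Clk1 was 9.58, 9.53 and 9.84 in MSM and 9.08, 8.94 and 9.18 in SSM, a difference of -0.58 (SE 0.14), next to -0.61 in the saline pups. Mir380 was 5.41, 5.44 and 5.58 in MSM and 4.39, 4.65 and 4.65 in SSM, a difference of -0.92. The SSM arrays lay below the MSM arrays in both genes, and here no single array stood out.

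The same lists were read in the morphine pups. The splicing list had 19 of 26 members lower in SSM with a median of -0.15 and 13 at an unadjusted p under 0.05, against 26.4% of all genes lower and 2.26% at such a p. All 5 members of the nuclear-retained list were lower, with a median of -0.70. Malat1 was 11.29, 11.26 and 11.38 in MSM and 10.70, 10.46 and 10.53 in SSM. The 47 cluster genes had a median of -0.25, with 23 at such a p. The choroid plexus median was -0.028. Without SSM replicate 1 and MSM replicate 3 the splicing median was -0.16 with 12 members at such a p and the nuclear-retained median was -0.64 with 3. The cluster median was then -0.16 with 10 lower genes at such a p and 1 higher, and the choroid plexus median was -0.15. With all morphine arrays, 9 of 53 small nucleolar RNA genes were lower and 3 higher at such a p, with a median of -0.0090. Of 297 microRNA genes 34 were lower and 13 higher, against 2.26% and 12.1% of all genes. Those outside the cluster had a median of 0.030, next to -0.032 in the saline pups.

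**Figure D4:**
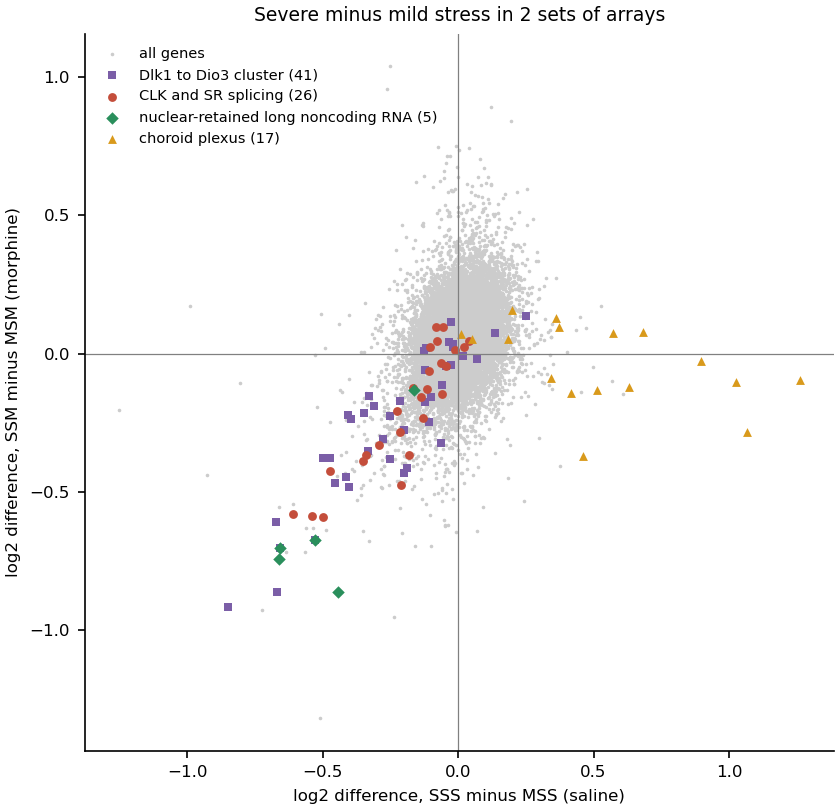
Log2 difference SSS minus MSS (horizontal axis) against SSM minus MSM (vertical axis) for 19938 genes (grey) and for 4 gene lists (coloured). Splicing, nuclear-retained and Dlk1 to Dio3 genes extend to the lower left, where Mir380 lies at -0.85 and -0.92, and choroid plexus genes extend to the right only.

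A test of the difference between the saline and the morphine contrast left 0 genes past an adjusted p of 0.05 (0.0%), with 727 at an unadjusted p under 0.05 (3.65%) and a smallest adjusted p of 0.959 in limma. No member of the splicing or nuclear-retained lists was among the 727. The smallest p-values belonged to Cd48, an immune cell surface protein (-0.16 in saline, 0.34 in morphine), Fcrls, a microglial Fc receptor-like gene (-0.11 and 0.38), and Pknox1, a homeobox gene (0.014 and 0.45), on one side. On the other side were Lifr, a cytokine receptor (0.10 and -0.24), Myo19, a mitochondrial myosin (0.014 and -0.38), and Itpripl1 (0.32 and -0.11). Cd48 lay below the array medians, which makes it a dim measurement.

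Genes of the corticosteroid axis, which a stressor would engage, gave no common direction. Of 19 measured genes known to respond to glucocorticoids, 10 were higher and 9 lower in SSS, with a median of 0.00043, and 1 on each side had an unadjusted p under 0.05. Fkbp5, a chaperone of the glucocorticoid receptor that the receptor itself induces, was 7.74, 7.54 and 7.68 in MSS and 7.83, 7.69 and 7.85 in SSS, with overlap (0.14, unadjusted p = 0.0637). Sult1a1, a sulfotransferase, was 5.07, 4.84 and 4.86 in MSS and 4.75, 4.59 and 4.70 in SSS, separate but dim. Among 15 receptor and corticotropin genes, Pomc, the precursor of corticotropin and beta-endorphin, was 4.45, 4.57 and 4.40 in MSS and 4.68, 4.86 and 4.57 in SSS, a difference of 0.23 (unadjusted p = 0.012) at a level below the array medians.

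Clock genes included the lower gene Arntl, which codes for BMAL1, the activator at the centre of the loop. It was 7.74, 7.65 and 7.63 in MSS and 7.35, 7.51 and 7.49 in SSS (-0.22, SE 0.06, unadjusted p = 0.0013). Dbp, an output gene that BMAL1 and CLOCK activate, was 7.74, 7.80 and 7.87 in MSS and 8.08, 8.01 and 8.08 in SSS (0.25, SE 0.09, unadjusted p = 0.0148). Arntl and Dbp lay on opposite sides and the groups overlapped in neither.

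Other clock genes were nearer to 0. Per1, a repressor of the loop, was 7.07, 6.86 and 6.83 in MSS and 7.09, 7.09 and 7.07 in SSS (unadjusted p = 0.0353), and Nr1d1, which represses Arntl, differed by 0.11 (unadjusted p = 0.19). In the morphine pups Dbp differed by 0.46 and Arntl by 0.074, and the test between the contrasts gave Arntl an unadjusted p of 0.002. The labels used here give no time of day for sampling.

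Immediate early genes, which report recent neuronal activity, showed no member with an unadjusted p under 0.05 among 20 in limma, 9 higher and 11 lower. Heat shock and co-chaperone genes had 16 of 23 higher in SSS, against 54.4% of all genes, with a median of 0.020. Only Dnajb6 had such a p, on the lower side. The list of unfolded protein and amino acid response genes held 20 of 25 with the higher mean, against 54.4% of all genes, a median of 0.047 and 3 such p-values on the higher side, against 1.28% of all genes. The count was 1 without MSS replicate 3 or SSS replicate 3 and 7 after median centring. Chac1, a glutathione-degrading target of ATF4, was 6.29, 6.34 and 6.53 in MSS and 6.76, 6.74 and 6.52 in SSS, and Manf, a secreted factor of endoplasmic reticulum stress, was 7.12, 7.13 and 7.05 in MSS and 7.24, 7.17 and 7.30 in SSS. Chac1 overlapped and Manf did not.

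Energy genes had list medians slightly above 0. Of 69 oxidative phosphorylation genes 50 were higher in SSS, against 54.4% of all genes, with a median of 0.040 and 6 at an unadjusted p under 0.05 (8.696%, against 1.28%). Cox8a, a subunit of cytochrome c oxidase, was 9.69, 9.80 and 9.73 in MSS and 9.89 in all 3 SSS arrays, and Ndufb5, a subunit of complex I, was 9.49, 9.62 and 9.68 in MSS and 9.77, 9.74 and 9.79 in SSS. Sdhaf1, which inserts iron-sulfur centres into complex II, was 7.57, 7.58 and 7.62 in MSS and 7.73, 7.79 and 7.86 in SSS.

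The oxidative phosphorylation count was 3 without MSS replicate 1, without SSS replicate 2 and with the choroid plexus covariate. Scaling moved this list: the median was 0.012 with 40 of 69 higher and 5 such p-values after quantile normalization, and 0.080 with 59 higher and 10 after median centring. The 71 mitochondrial ribosome genes had 42 higher, against 54.4% of all genes, with a median of 0.025. On the higher side 4 had such a p (5.634%, against 1.28% of all genes). This count was 1 without MSS replicate 2 and 2 without MSS replicate 3, SSS replicate 1 or SSS replicate 2. Mrps16 was 8.01, 7.94 and 8.19 in MSS and 8.22, 8.36 and 8.26 in SSS. The 41 proteasome genes had 29 higher, against 54.4% of all genes, with a median of 0.028 and 0 such p-values.

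The medians of 5 neuronal lists lay between -0.030 (interneuron) and 0.061 (synapse and vesicle release). Synapse and vesicle release genes had 15 of 20 higher, against 54.4% of all genes, with 0 at an unadjusted p under 0.05 in limma. Syp, a synaptic vesicle membrane protein, was 11.51, 11.39 and 11.40 in MSS and 11.53, 11.52 and 11.54 in SSS. Glutamate receptor genes had 12 of 19 lower, against 45.6% of all genes. Gria2, the AMPA receptor subunit that makes the channel impermeable to calcium, was 10.70, 10.72 and 10.53 in MSS and 10.39, 10.51 and 10.52 in SSS (-0.18, SE 0.07, unadjusted p = 0.0221). The gap between the groups in Gria2 was under 0.02.

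Genes of dividing and newly formed cells had more higher than lower means, as did all genes, of which 54.4% were higher in SSS. Cell cycle genes had 19 of 23 higher (median 0.054), with 5 separate between groups (against 6.49% of all genes). On the higher side 1 had an unadjusted p under 0.05 in limma (against 1.28% of all genes). This was Rrm2, a subunit of ribonucleotide reductase (0.20, unadjusted p = 0.0478). The latter count was 4 without MSS replicate 3, 3 without SSS replicate 2, 2 without MSS replicate 2 and 0 without SSS replicate 1 or 3. In Aurkb and Mcm3 the MSS arrays were uneven, with replicate 1 at 5.59 and 6.02 and the others at 5.88 to 5.91 and 6.35. Immature neuron genes had 14 of 17 higher (median 0.058). After quantile normalization 11 of these 17 were higher (median 0.030), and 20 of the 23 cell cycle genes (median 0.087). Tubb3, a tubulin of young neurons, was 11.73, 11.61 and 11.68 in MSS and 11.84, 11.81 and 11.79 in SSS, and Draxin, an axon guidance protein, was 6.57, 6.76 and 6.64 in MSS and 7.04, 7.04 and 6.76 in SSS.

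Glial lists had medians below 0 with no member at an unadjusted p under 0.05 in limma. Oligodendrocyte precursor genes had 13 of 15 lower (median -0.11) and myelin genes 14 of 15 (median -0.086), against 45.6% of all genes. The myelin list leaned on single arrays: 8 of 15 were lower without MSS replicate 3 (median -0.0092), and the median was -0.23 without MSS replicate 1 and -0.16 without SSS replicate 3. Without MSS replicate 2 the precursor median was -0.070. Mag, a myelin protein, was 5.73, 6.13 and 7.27 in MSS and 5.78, 6.00 and 5.89 in SSS, a difference of -0.49 in which MSS replicate 3 stood above the other 5 arrays. Microglial genes had a median of -0.029, and the sign turned to 0.0041 after quantile normalization and 0.011 after median centring.

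Markers of tissue that borders the hippocampus were also compared. Meninges and collagen genes had 15 of 19 lower (median -0.13), against 45.6% of all genes. However, the median was -0.022 without SSS replicate 2, -0.068 without MSS replicate 1, -0.22 without MSS replicate 2 and -0.26 without SSS replicate 3. It was 0.018 among the 3 arrays with high Ttr. Crabp2, a retinoic acid carrier of the meninges, was 5.50, 5.44 and 5.73 in MSS and 5.19, 4.89 and 5.30 in SSS (-0.43, SE 0.18, unadjusted p = 0.0288). The list mean was 7.25, 6.97 and 7.18 in MSS and 7.02, 6.77 and 7.31 in SSS, which overlap. The thalamus list mean was 6.88, 6.83 and 7.18 in MSS and 6.93, 6.81 and 6.91 in SSS, and the striatum list mean was 6.32, 6.27 and 6.73 in MSS and 6.36, 6.30 and 6.36 in SSS. MSS replicate 3 was highest in both, and the part of these tissues in the results above was not tested.

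**Figure D5:**
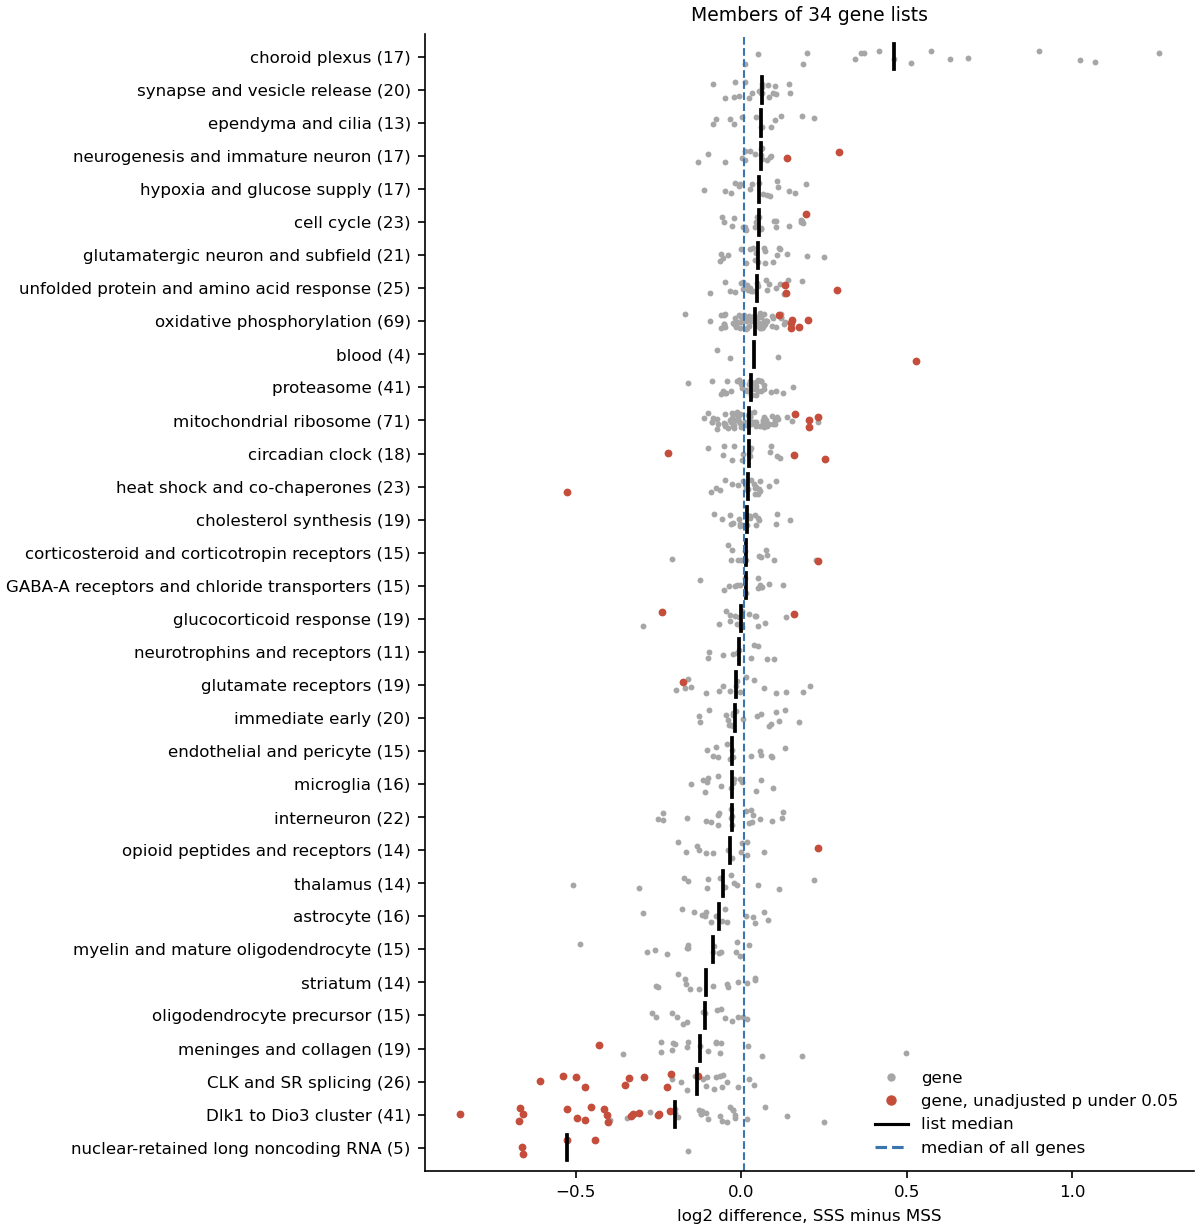
Log2 difference SSS minus MSS (horizontal axis) for each measured member of 34 gene lists (rows, with the number of members), red where the unadjusted p was under 0.05, with a black bar for the list median and a dashed line at the median of all genes, 0.0076. The nuclear-retained list (-0.53), the Dlk1 to Dio3 list (-0.20) and the splicing list (-0.13) lie lowest, and choroid plexus (0.46) lies highest with no red point.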

How the data were processed

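The values are log2 intensities of Affymetrix Mouse Gene 1.0 ST arrays that the authors deposited as 1 table. RMA produced them (background correction, normalization between arrays and summary of probes), per the submitters' processing notes. Software, version and genome build: not given in the sources used here. No value was transformed again. All 15 columns matched a sample.

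Of 35557 probe sets, 21789 carry 1 gene symbol, 1621 several and 12147 are unnamed here. The brightest probe set per symbol left 19938 genes, of which 999 had several, and 19856 matched the RefSeq gene table (GRCm38.p6), used for gene type, names and neighbours only. The other 13768 probe sets were tested apart: in limma 0 passed an adjusted p of 0.05, and 769 reached 0.05 unadjusted.

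The model, in limma 3.58.1 under R 4.3.3, held the 5 group means and used all 15 arrays (10 residual and 4.61 prior degrees of freedom), two-sided tests and Benjamini-Hochberg adjustment over 19938 genes at 0.05. The fit was tested on simulated data. The number of arrays limits the precision, and the median SE was 0.081. Groups come from the treatment label, and replicates are numbered in accession order.

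Named genes were the 15 in each direction with the smallest p and no overlap between arrays (passing over olfactory and vomeronasal receptors, predicted genes, RIKEN clones and small RNAs), the 8 largest differences each way under the same limits with a mean of at least 6, up to 4 members of each list by p, choroid plexus genes, Mir380, Kbtbd7 and 3 genes each way for the difference of contrasts. The 34 lists held 788 members, 729 measured. The members and lists were chosen with earlier results of these data known, so they are not independent support. Alternatives covered scaling, the arrays in the fit, the SS number as a random block, dim genes, the probe set per gene, the choroid plexus mean as a covariate, each replicate left out and the prior variance.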

Additional observations from a re-analysis of the deposited data

How the results depend on the processing

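With 3 arrays per group the median SE of a difference was 0.081. The count of genes past the adjusted threshold was 0 in every setting tried except without SSM replicate 1 and MSM replicate 3, where it was 1 and the genes at an unadjusted p under 0.05 and higher in SSS numbered 400, and the count for the difference between the saline and morphine contrasts was 0 wherever it was run. Against 255 higher and 313 lower genes, quantile normalization gave 596 higher, centring on the array medians gave 1018 higher and 161 lower, the 6 arrays alone gave 572 higher and 496 lower, and requiring a mean of at least 6 gave 190 lower. Leaving out 1 replicate gave 185 to 323 higher and 168 to 443 lower genes, the 168 without SSS replicate 1. Of the named genes, Ttr was -0.095 with the choroid plexus covariate. With only the arrays of high Ttr, Myo19 was -0.092, Fcrls 0.095 and Dlk1 -0.24. Over the replicates left out, Myo19 ranged from -0.015 to 0.061 and Pknox1 from -0.042 to 0.060. Rtl1 ranged from -0.12 to 0.035, the latter without SSS replicate 1. The cause of these shifts was not tested. The SS number as a random block (correlation 0.065) gave 199 higher and 231 lower genes. The number does not vary within CC, MSS or MSM, so only the SSS and SSM arrays can inform this correlation. It cannot measure a difference that goes with the stress level. No paired analysis was possible because the labels give the groups no shared replicate numbers.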
